A study of Mus musculus with 8 samples.

Results

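The Slc30 genes encode the zinc exporters known as ZnT proteins, and 8 of them are described here: Slc30a1, Slc30a2, Slc30a4, Slc30a5, Slc30a6, Slc30a7, Slc30a9 and Slc30a10. They were picked by name as members of the family out of the 55414 genes in the count table, and not by a threshold on a measured value. Paneth cells (PCs), the granule-filled secretory cells at the bottom of the small intestinal crypts, had been sorted from single mice, and their polyadenylated RNA was sequenced in bulk. The first group of 4 mice drank Milli-Q water, which is purified laboratory water, and the other group of 4 mice drank water holding 25 mM ZnSO4, both for 7 days. By their labels all 8 mice then received TNF (tumor necrosis factor), a cytokine that drives inflammation, and the cells were taken 3 hours afterwards, so both groups share that treatment. In zinc replicate 3 the genes that TNF switches on were far lower than in the other 7 libraries, which goes against its label, and this library was kept in its labelled group. The methods of the study give C57BL/6J as the strain from which its PCs were sorted. The dose of TNF and the age of the mice are not given in the sources used here.

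ZnT proteins move zinc out of the cytosol, either across the plasma membrane or into an organelle or a secretory vesicle, while the Slc39 (ZIP) importers carry zinc the other way. PCs keep a large store of zinc in their secretory granules, and ZnT2, the product of Slc30a2, is the exporter known for filling them. Free zinc in the cell activates the transcription factor MTF1, which binds metal response elements in the promoters of the metallothionein genes Mt1 and Mt2 and of Slc30a1, the gene of the plasma membrane exporter.

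Stretches upstream of the RefSeq start that match the core of a metal response element are shown for Slc30a1 and Slc30a2, the members on which the zinc comparison turned, and for Mt1 and Mt2, the standard MTF1 targets. The letters searched were TGCACNC and TGCGCNC, on both strands, in the 250 bases before each RefSeq start. The windows came from RefSeq on the GRCm38.p6 build, all 8 members had one, and the coordinates given here are those of the exact match of each window to GRCm39. Each line reads 5′ to 3′ on the plus strand, which is also the strand of these 4 genes, and the capitals mark the match. A match to the opposite strand therefore appears as the reverse complement.
Slc30a1, chr1:191638840-191638866, 43 bases before the start: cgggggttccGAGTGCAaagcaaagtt
Slc30a2, chr4:134070553-134070579, 214 bases before the start: ccatcgtcccGCGCGCAacttcgaggg
Slc30a2, chr4:134070567-134070593, 200 bases before the start: gcaacttcgaGGGCGCAccgagagagg
Mt1, chr8:94905684-94905710, 23 bases before the start: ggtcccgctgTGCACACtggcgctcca
Mt2, chr8:94899013-94899039, 223 bases before the start: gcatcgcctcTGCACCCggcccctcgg
Mt2, chr8:94899108-94899134, 128 bases before the start: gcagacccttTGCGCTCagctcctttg
Mt2, chr8:94899186-94899212, 50 bases before the start: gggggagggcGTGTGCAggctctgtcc
The single match in Slc30a1 and both matches in Slc30a2 lay on the strand opposite to the gene. Slc30a4 held 2 matches, Slc30a5 held 1 and Slc30a10 held 3, of which 2 overlapped on opposite strands, whereas the windows of Slc30a6, Slc30a7 and Slc30a9 held none. At least 1 match was thus found in 5 of the 8 members (62.5%), against 21.4% of all 32851 RefSeq windows of that length. These counts describe letters in a window and not binding. The searched letters hold more G and C than A and T, and base composition was not taken into account. The GC content of the member windows ran from 54.8% for Slc30a6 to 82.8% for Slc30a4. GENCODE annotates transcripts that begin farther upstream than the RefSeq start, and its exons cover 85 of the 250 bases for Slc30a1, 121 for Slc30a2, 114 for Mt2 and 7 for Mt1. The Slc30a1 match, both Slc30a2 matches and the Mt2 match 50 bases before the start lie entirely in such exons. So do both Slc30a4 matches and the Slc30a5 match. By GENCODE all of these are part of an annotated transcript, and whether they also act as promoter was not tested. The match in Mt1, the other 2 in Mt2 and the 2 overlapping matches in Slc30a10 lie outside the exons of their gene. The remaining Slc30a10 match has 6 of its 7 bases in an exon. Those 2 in Mt2 are still inside the span of the gene, which GENCODE starts at chr8:94898819.

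Library totals lay between 10623658 and 15101627 counts, at which 3 counts were worth 0.179 to 0.369 on the counts-per-million (CPM) scale. The 11 PC markers together took 45.5% to 56.5% of all counts, and none of them was at 0 in all libraries. A few libraries stood apart, and their values bear on the members below. In zinc replicate 3 the summed level of 13 TNF and NF-kB target genes was 101 CPM, against 1272 to 1607 CPM in the other 7 libraries, and 12 of the 13 were lowest there. The summed level of 12 enterocyte markers was 842 CPM in that library against 339 to 466 CPM in the others, and 11 of the 12 were highest there. In water replicates 3 and 4 the deviation of a gene from its mean was lower for longer genes (Spearman's rho of -0.284 and -0.293 across genes, which are not independent replicates), while the other 6 libraries ranged from 0.00675 to 0.224. In bulk samples, fewer cells of a type and less RNA per cell cannot be told apart.

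Per kilobase of exon, Slc30a2 was the most abundant of the 8 zinc exporters in these PCs, by a margin that depended on the length used. Levels were compared between genes as CPM per kilobase of exon, where the length is the union of all annotated exons of a gene, and all 8 libraries were used. Slc30a2 (ENSMUSG00000028836, chr4:134070234-134081795, plus strand, 8 exons in its canonical transcript) reached 22.9 ± 4.97 CPM per kilobase (SD, n = 8), with a range of 16.9 to 31.9. It ranked 568th of 10694 genes with a length, above 94.7% of them. Its lowest library lay above the highest library of every other member, and its mean was 3.31 times that of Slc30a4, the next in order.

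The exporters of the Golgi and of vesicles formed a middle group. Slc30a4, whose product loads zinc into vesicles of the trans-Golgi and endosomal system and which is mutated in the lethal milk mouse, was at 6.92 ± 0.715 CPM per kilobase (SD, n = 8). Slc30a7, whose product works in the Golgi and early secretory pathway, was at 6.63 ± 1.40 (SD, n = 8). Those neighbours could not be ordered, because their ranges overlapped and Slc30a4 was the higher of them in only 3 of the 8 libraries. Slc30a6 and Slc30a5 encode partners in a heterodimer of the early secretory pathway in which ZnT6 has no transport activity of its own. They were at 5.04 ± 1.29 and 4.05 ± 0.484 CPM per kilobase (SD, n = 8). The ranges of Slc30a7, Slc30a6 and Slc30a5 overlapped from one neighbour to the next, although Slc30a7 was above Slc30a6 in 8 of 8 libraries and Slc30a6 above Slc30a5 in 7 of 8.

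The other 3 members were lower. Slc30a9, linked to zinc export from mitochondria, was at 1.40 ± 0.134 CPM per kilobase (SD, n = 8) and did not overlap Slc30a5 above it, which had a mean 2.90 times as high. Slc30a1 averaged 0.270 ± 0.297 CPM per kilobase (SD, n = 8), above only 8.65% of the tested genes, and did not overlap Slc30a9. Slc30a10, a cell-surface exporter best known for carrying manganese, had 9 counts in all 8 libraries together and an average of 0.0104 CPM per kilobase, below all tested genes with a length. The other known genes of the family, Slc30a3, Slc30a8 and Tmem163, had 2, 0 and 0 counts over the 8 libraries, and none of these 3 passed the filter on low counts.

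The choice of length moved the middle of this order but not its ends. With the longest transcript as the length the order ran Slc30a2, Slc30a7, Slc30a5, Slc30a6, Slc30a4, Slc30a9, Slc30a1 and Slc30a10. With the canonical transcript it ran Slc30a2, Slc30a6, Slc30a7, Slc30a5, Slc30a4, Slc30a9, Slc30a1 and Slc30a10. The lead of Slc30a2 then narrowed to 25.8 against 13.9 CPM per kilobase for Slc30a6, as means over all 8 libraries, water and zinc together. Without any length, Slc30a7 had the higher mean in water, at 110 CPM against 73.9 CPM for Slc30a2, and the lower in zinc, at 88.8 against 103 CPM.

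**Figure D1:**
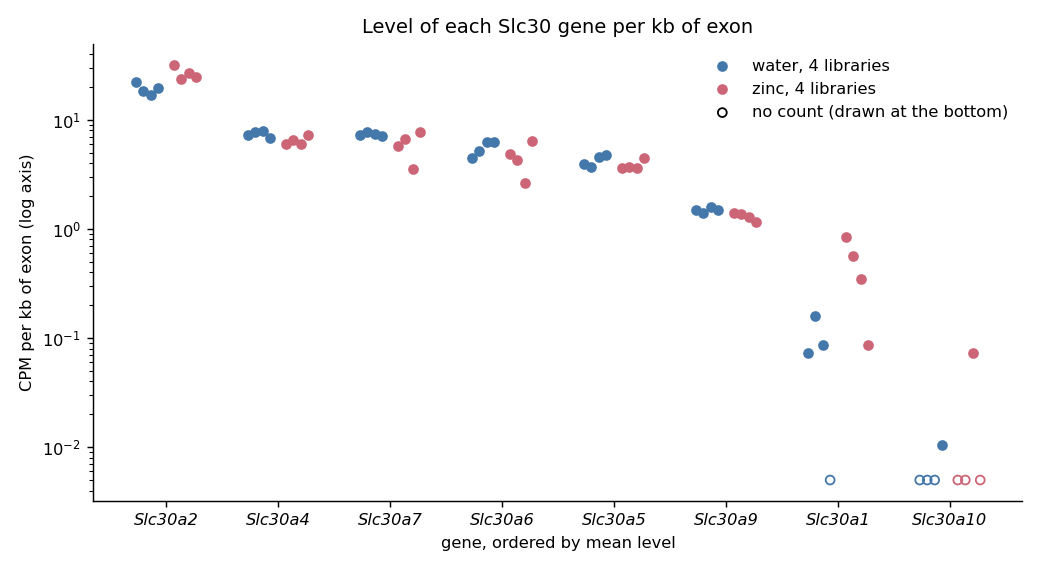
Level of each Slc30 exporter in CPM per kilobase of exon on a log axis, with 1 point per library and separate colours for the 4 water and 4 zinc libraries. Slc30a2 lies between 16.9 and 31.9, above every point of the other members, and Slc30a1 and Slc30a10 lie at the bottom.

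Summed over the 8 members, the level was 43.9 to 46.5 CPM per kilobase in the water libraries and 44.5 to 54.4 in the zinc libraries. Slc30a2 supplied 47.6%, 41.4%, 37.8% and 42.2% of that sum in water replicates 1 to 4 and 58.7%, 50.3%, 60.8% and 47.5% in zinc replicates 1 to 4. The group means were 42.2% ± 4.05 and 54.3% ± 6.41 (SD, n = 4 each). The groups met at their edges, where water replicate 1 and zinc replicate 4 were almost level. The mean share of Slc30a4 was lower in zinc, at 16.4% ± 1.34 in water and 13.2% ± 1.48, and the same held for Slc30a7, at 16.2% ± 1.00 and 12.0% ± 3.27, and for Slc30a9, at 3.30% ± 0.152 and 2.66% ± 0.318 (SD, n = 4 each), each with no overlap between groups. In CPM, by contrast, the groups overlapped for Slc30a4, Slc30a7 and Slc30a9. Shares of one sum must move against each other, and Slc30a2 is the largest part of it, so these values are a description and were not tested.

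A ratio between members put the granule exporter beside the vesicle and Golgi exporters within each library. Slc30a2 was 3.07, 2.37, 2.15 and 2.82 times as high as Slc30a4 per kilobase in water replicates 1 to 4, and 5.32, 3.56, 4.56 and 3.36 times as high in zinc replicates 1 to 4. Against Slc30a7 the ratio was 2.28 to 3.07 in water and 3.15 to 7.57 in zinc. Every zinc library had a higher ratio than every water library in both cases, and the ratios do not tell which member moved. Both ratios share Slc30a2, whose own groups did not overlap in CPM, so they are not a separate result. How often ratios of other genes part the groups in this way was not tested.

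**Figure D2:**
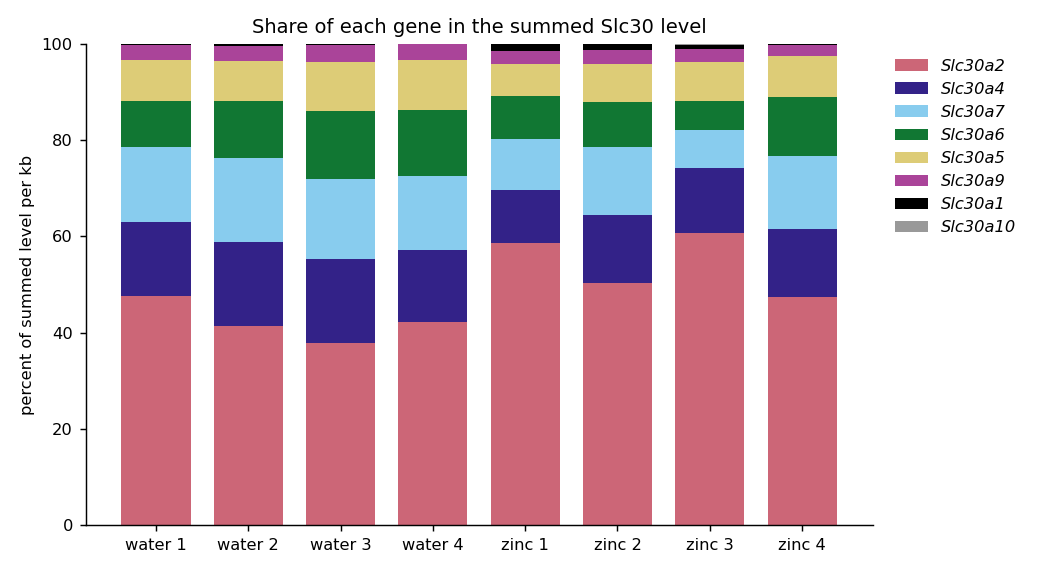
Share of each member in the summed level of the 8 Slc30 exporters, in percent of CPM per kilobase, with 1 stacked bar per library. The Slc30a2 segment takes 37.8% to 47.6% of the water bars and 47.5% to 60.8% of the zinc bars.

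The comparison of zinc with water asked which exporters changed when the mice drank zinc before the TNF challenge. No member passed edgeR's quasi-likelihood test at an adjusted p of 0.05, where 0 of the 10707 tested genes (0%) passed as well. At an unadjusted p under 0.05, 2 of the 7 tested members stood out, Slc30a1 and Slc30a2, both higher in zinc, beside 10.2% of all tested genes at that level (6.42% higher and 3.78% lower in zinc). The same 2 members fell under that unadjusted threshold with DESeq2 and with limma-voom, and none passed adjustment with either, where DESeq2 called 0.0674% of all genes and limma-voom 0%. With 10.3% of all genes under it with DESeq2 and 12.4% with limma-voom, that threshold was passed by many genes. Without zinc replicate 3 the log2 fold change was 2.58 for Slc30a1, 0.48 for Slc30a2 and between -0.18 and -0.10 for the other 5 tested members, and none was called. With all libraries those 5 had log2 fold changes between -0.31 and -0.14, and the median over the 7 was -0.20 beside 0.0062 over all tested genes. Positive values stand for higher levels in zinc, and levels below are CPM on library sizes scaled by the trimmed mean of M values (TMM).

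Slc30a1 had the largest difference of the family and very few counts behind it. This gene (ENSMUSG00000037434, chr1:191638808-191645361, plus strand, 2 exons) encodes ZnT1, which sends zinc out of the cell across the plasma membrane. It had 6, 15, 4 and 0 counts in water replicates 1 to 4, or 0.410, 0.893, 0.492 and 0 CPM. In zinc replicates 1 to 4 it had 51, 45, 28 and 6 counts, or 4.78, 3.23, 1.96 and 0.484 CPM. Zinc replicates 1 to 3 lay above all water libraries, whereas zinc replicate 4 sat inside the water range, so the groups overlapped. The means were 0.449 ± 0.366 CPM in water and 2.61 ± 1.83 CPM in zinc (SD, n = 4 each). On the log2 scale the fold change was 2.47 (SE 0.790), a 5.53-fold difference, with an adjusted p = 0.485 by edgeR (0.0103 before Benjamini-Hochberg adjustment). The log2 fold change lay between 2.03 without zinc replicate 1 and 3.12 without water replicate 2 when 1 library at a time was left out.

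Slc30a2, the granule exporter, was modestly higher in zinc, and here the groups did not overlap. Its levels were 85.5, 70.1, 65.1 and 74.8 CPM in water replicates 1 to 4 and 123, 90.4, 104 and 94.7 CPM in zinc replicates 1 to 4. All 4 zinc libraries were above the highest water library, water replicate 1. The means were 73.9 ± 8.69 and 103 ± 14.6 CPM (SD, n = 4 each). On the log2 scale the fold change was 0.48 (SE 0.152), a 1.40-fold difference, with an adjusted p = 0.485 by edgeR (0.00967 before adjustment). Of the 7 tested members it was the 1 whose groups did not overlap, against 5.87% of all tested genes (2.76% higher and 3.12% lower in zinc). Its 9130 counts made the value far better supported by depth than that of Slc30a1. Extl1, which runs on the opposite strand and shares 1551 bases of exon with Slc30a2, had 1607 counts, 17.6% of those of Slc30a2, and a log2 fold change of 0.05. Nothing in the sources used here says whether reads were counted by strand, and without it the reads of the shared bases cannot be told apart.

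**Figure D3:**
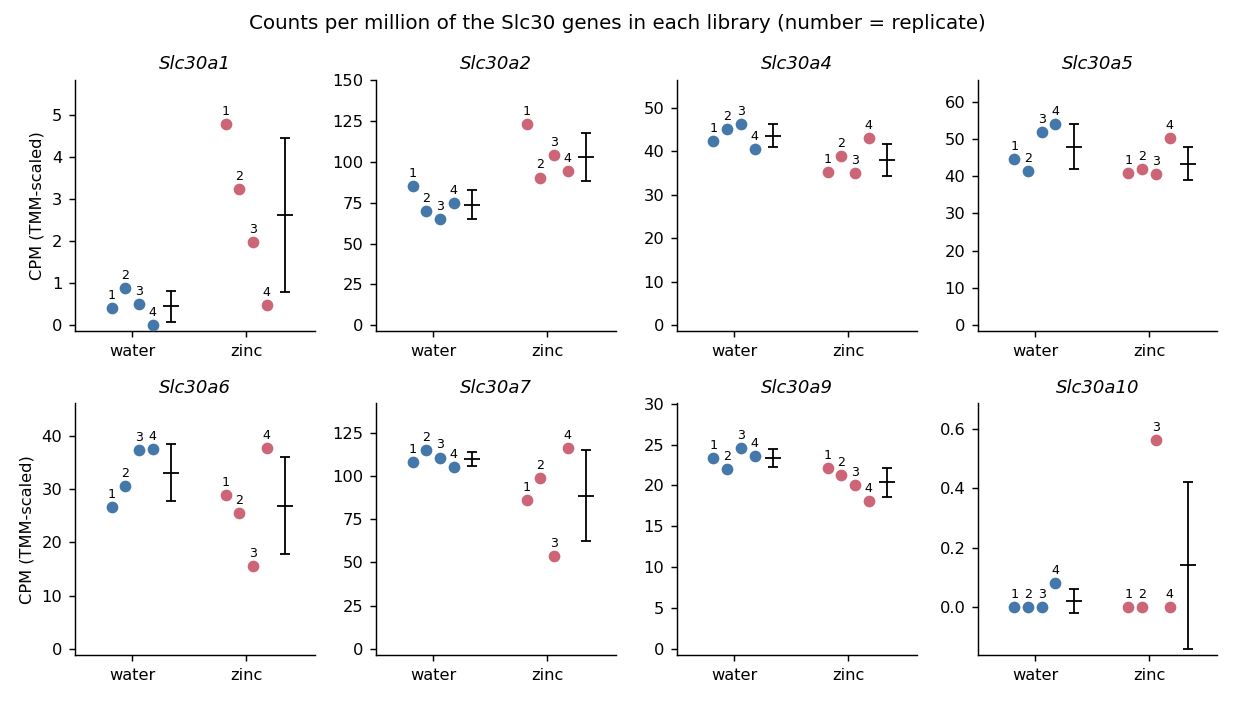
Level of each of the 8 members in CPM, 1 panel per gene with its own axis that includes 0. The 4 water and 4 zinc libraries are points, with the group mean and SD. The zinc points of Slc30a2 all lie above its water points, and in Slc30a1 zinc replicates 1 to 3 do so while zinc replicate 4 lies among the water points.

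The exporters of the secretory pathway and of vesicles had lower means in zinc, and none passed the test. Slc30a4 (ENSMUSG00000005802, chr2:122523004-122544845, minus strand, 7 exons) was at 42.5, 45.1, 46.3 and 40.5 CPM in water replicates 1 to 4 and at 35.3, 38.8, 34.9 and 43.0 CPM in zinc replicates 1 to 4. Its log2 fold change was -0.20 (SE 0.125, adjusted p = 0.543 by edgeR). Zinc replicates 1 to 3 lay below all water libraries and zinc replicate 4 lay among them, the reverse of the pattern in Slc30a1.

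Slc30a7 (ENSMUSG00000054414, chr3:115732621-115801060, minus strand, 11 exons) had the tightest water group of the well-expressed members. Its levels were 108, 115, 111 and 106 CPM in water replicates 1 to 4 and 86.2, 98.9, 53.5 and 116 CPM in zinc replicates 1 to 4. The zinc libraries thus ran from 53.5 to 116 CPM and enclosed the water range, with 3 below it and 1 above it. The log2 fold change was -0.31 (SE 0.213, adjusted p = 0.568 by edgeR). It moved to -0.12 without zinc replicate 3, the library with the low TNF target genes, and to -0.47 without zinc replicate 4. The genes on the opposite strand that share exon bases with Slc30a7 had few counts, 424 for Dph5 and 511 for Extl2 beside 10235 for Slc30a7.

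Neither partner of the heterodimer passed the test. Slc30a5 (ENSMUSG00000021629, chr13:100936795-100970006, minus strand, 16 exons) was at 44.4, 41.4, 51.8 and 54.0 CPM in water replicates 1 to 4 and at 40.9, 41.9, 40.6 and 50.1 CPM in zinc replicates 1 to 4, with a log2 fold change of -0.14 (SE 0.141, adjusted p = 0.675 by edgeR). Its highest water libraries were replicates 3 and 4, although longer genes tended to be low there and its exons cover 11281 bases. Without both of those libraries the log2 fold change was 0.0063.

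Slc30a6 (ENSMUSG00000024069, chr17:74702579-74733299, plus strand, 14 exons) was at 26.7, 30.7, 37.4 and 37.6 CPM in water replicates 1 to 4 and at 28.9, 25.5, 15.6 and 37.8 CPM in zinc replicates 1 to 4. The groups overlapped widely, and the lowest value of all was that of zinc replicate 3. The log2 fold change was -0.30 (SE 0.241, adjusted p = 0.615 by edgeR), and it was -0.10 without zinc replicate 3 and -0.51 without zinc replicate 4. Slc30a6 shares 867 bases of exon with Nlrc4, an inflammasome sensor gene on the opposite strand that had 9338 counts beside its own 3034. Nlrc4 was also lowest in zinc replicate 3, at 56.1 CPM, and the part of its reads in the Slc30a6 values was not tested.

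Slc30a9, the mitochondrial member (ENSMUSG00000029221, chr5:67464285-67515805, plus strand, 18 exons), varied least between libraries. It was at 23.3, 22.0, 24.6 and 23.6 CPM in water replicates 1 to 4 and at 22.1, 21.3, 20.1 and 18.1 CPM in zinc replicates 1 to 4. Zinc replicate 1 was just inside the water range and the other 3 were below it. The log2 fold change was -0.20 (SE 0.121, adjusted p = 0.534 by edgeR).

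Slc30a10 (ENSMUSG00000026614, chr1:185186973-185200959, plus strand, 4 exons) was not tested, because it did not pass the filter on low counts. It had 1 count in water replicate 4 (0.0800 CPM), 8 counts in zinc replicate 3 (0.561 CPM) and 0 in the other 6 libraries, which allows up to 0.369 CPM there. Most of its counts therefore came from the library in which the summed enterocyte markers were also highest, and the part of other cells in its counts was not tested. The means were 0.0200 CPM in water and 0.140 CPM in zinc. A two-sided exact permutation test over the 70 assignments of mice gave p = 1. With 6 libraries at 0 that test could not have gone under 0.05 in any assignment, so it decides nothing here.

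**Figure D4:**
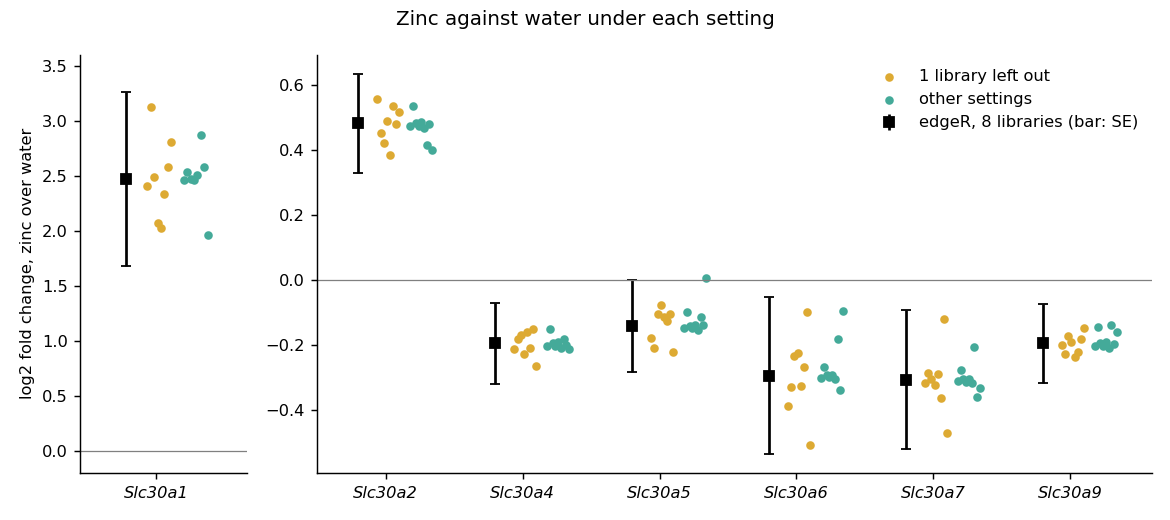
Log2 fold change of zinc against water for the 7 tested members, as squares with bars of 1 SE, beside points for the fits that leave out 1 library and for the other settings tried. The points of Slc30a1 and Slc30a2 all lie above 0, around 2.47 and 0.48, and the squares of the other 5 members lie between -0.31 and -0.14.

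The values of Slc30a1 were set beside those of other genes that zinc is known to move through MTF1. Mt1, a metallothionein that binds zinc in the cytosol, was at 41.0, 44.3, 68.2 and 36.0 CPM in water replicates 1 to 4 and at 254, 107, 29.5 and 45.0 CPM in zinc replicates 1 to 4. Mt2, its neighbour and close relative, was at 6.50, 7.09, 22.9 and 4.00 CPM in water and at 172, 49.8, 8.35 and 4.03 CPM in zinc, in the same order of replicates. Both metallothioneins were high in zinc replicates 1 and 2 and lay within the water range in zinc replicate 4. In zinc replicate 3, Mt1 was below every water library and Mt2 was within the water range, whereas Slc30a1 was above it. Their log2 fold changes were 1.20 (SE 0.563) for Mt1 and 2.57 (SE 1.02) for Mt2, with an adjusted p of 0.485 each by edgeR.

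Slc39a10, a plasma membrane zinc importer that MTF1 is known to repress, ran the opposite way. This gene was picked from these data, as the importer with the smallest p among those lower in zinc. It was at 49.6, 55.5, 38.3 and 45.3 CPM in water replicates 1 to 4 and at 11.9, 18.8, 30.5 and 51.5 CPM in zinc replicates 1 to 4, with a log2 fold change of -0.74 (SE 0.365, adjusted p = 0.491 by edgeR). Ranked by Slc30a1, the 4 zinc mice came in the same order by Mt2 and in the reverse order by Slc39a10. The order by Mt1 differed, with 29.5 CPM in zinc replicate 3 and 45.0 CPM in zinc replicate 4. These orders are a description of 4 mice with no test, and that of Slc39a10 comes from a gene chosen by its values. Zinc replicate 4 lay within the water range for Slc30a1, Mt2 and Slc39a10, at 0.484, 4.03 and 51.5 CPM. The order by Slc30a2 was another, since its zinc values were 123, 90.4, 104 and 94.7 CPM. Mtf1 itself was at 19.1 ± 2.81 CPM in water and 17.4 ± 5.60 CPM in zinc (SD, n = 4 each), with a log2 fold change of -0.14 (SE 0.237, adjusted p = 0.818 by edgeR).

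Across the 8 libraries Slc30a1 and Mt1 had a Pearson's r of 0.715 (exact permutation p = 0.0410, adjusted over 2 relations 0.0410) and a Spearman's rho of 0.571 (exact permutation p = 0.151), on log2(CPM + 0.5). For Slc30a1 and Mt2, r was 0.825 (exact permutation p = 0.0100, adjusted 0.0201) and rho was 0.905 (exact permutation p = 0.00456, adjusted 0.00913). Zinc replicates 1 and 2 lay farthest from the median of Mt1 and of Mt2, and without them r was -0.273 for Mt1 (exact permutation p = 0.626, n = 6) and 0.312 for Mt2 (exact permutation p = 0.515, n = 6). By rank, rho without them was -0.0286 for Mt1 (exact permutation p = 1, n = 6) and 0.771 for Mt2 (exact permutation p = 0.103, n = 6). The relation with Mt1 thus rested on those libraries, as did Pearson's r with Mt2, whereas the rank value with Mt2 stayed high without passing the test. The permutations shuffled libraries without regard to group. Over the 8 libraries Slc30a1, Mt1 and Mt2 each had a higher mean in zinc, so a shared group difference counts toward these r, rho and p values. Each group holds only 4 mice, too few for a value within groups.

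The summed level of the stem cell markers was high in the same libraries as Slc30a1. Over 8 such markers, of which none was at 0 in all libraries and Olfm4 was the most abundant, it was 459 to 643 CPM in the water libraries and 1134, 811, 1171 and 524 CPM in zinc replicates 1 to 4, so that zinc replicates 1 to 3 were above all water libraries for the markers as for Slc30a1, and zinc replicate 4 was not. Of the 8 markers, 6 were highest in zinc replicate 3. The markers of immune and stromal cells went the other way, at 45.3 to 91.6 CPM in water and 30.4 to 40.7 CPM in zinc over 13 genes. Among those, Adgre1, Col1a1, Col3a1 and Acta2 were at 0 in all libraries and Cd74 was the most abundant. The part of other cells in the Slc30a1 difference was not tested.

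**Figure D5:**
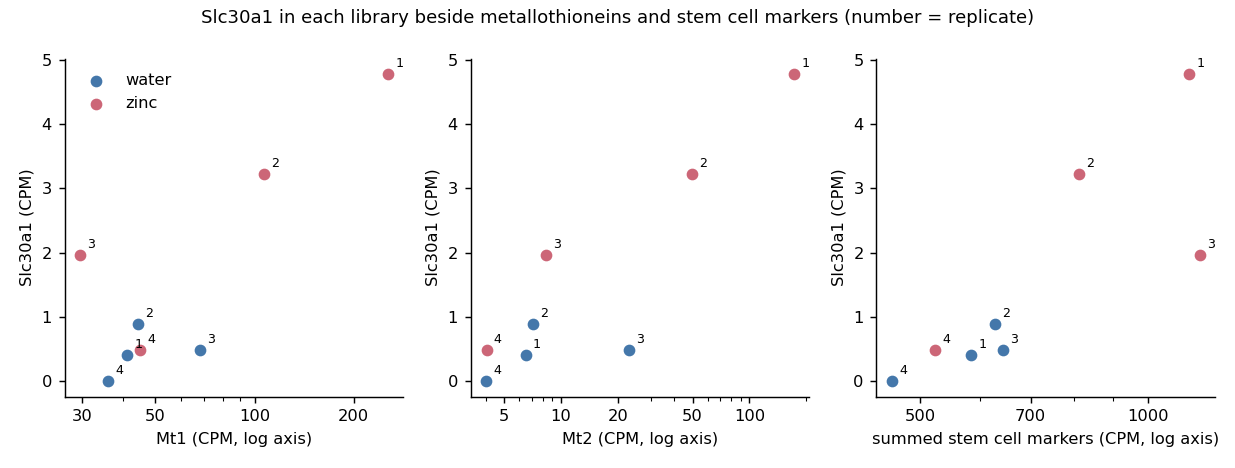
Slc30a1 in each of the 8 libraries beside Mt1, Mt2 and the summed stem cell markers, with Slc30a1 in CPM on the vertical axis and the other measure in CPM on a log axis, 1 point per library numbered by replicate. Zinc replicate 4, at 0.484 CPM of Slc30a1, lies among the water libraries in every panel.

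The genes whose levels over the 8 libraries were most like those of Slc30a1, by Pearson's r of log2(CPM + 0.5) among 10700 genes, were Hspg2 (0.983), Mcm3 (0.978) and Rfx1 (0.972). For Slc30a2, the member of highest level, they were Hes1 (0.978), Rpn2 (0.960) and Dmgdh (0.960). The r of each stayed between 0.957 and 0.986 without zinc replicate 3. These are the highest of very many values over 8 libraries that share their groups, and they are given as a description.

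Among the importers, the metallothioneins and the zinc enzymes of the secretory pathway, none passed adjustment with edgeR, DESeq2 or limma-voom. An unadjusted p under 0.05 was reached by 1 of 22 with edgeR, 2 of 23 with DESeq2 and 6 of 22 with limma-voom, beside 10.2%, 10.3% and 12.4% of all genes. Of the 14 Slc39 importers, 12 were tested, 4 with higher and 8 with lower values in zinc, and their median log2 fold change was -0.17. With edgeR none of the 12 had an unadjusted p under 0.05. The importer with the smallest p among the higher ones was Slc39a5, at 3.65 ± 1.09 CPM in water and 6.03 ± 3.12 CPM in zinc (SD, n = 4 each), with a log2 fold change of 0.74 (SE 0.367, adjusted p = 0.491 by edgeR). Slc39a1, chosen after its values were seen, was the 1 of the 12 without overlap between groups, beside 5.87% of all tested genes. It was at 180 to 182 CPM in water and 134, 146, 50.4 and 174 CPM in zinc replicates 1 to 4, with zinc replicate 3 again the lowest. Of the 5 genes in the list of metallothioneins and Mtf1, 4 were tested, and with edgeR Mt2 was the 1 with an unadjusted p under 0.05.

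Of 11 secreted or membrane-bound zinc enzymes that pass through the compartments the exporters serve, 6 were tested, 3 higher and 3 lower, with a median log2 fold change of 0.05. Mmp15, a membrane-type matrix metalloproteinase, was at 68.2 ± 9.99 CPM in water and 91.2 ± 23.9 CPM in zinc (SD, n = 4 each), with a log2 fold change of 0.42 (SE 0.196, adjusted p = 0.485 by edgeR). Mmp7, the zinc protease that matures the alpha-defensins of mouse PCs, was at 5538 ± 2169 CPM in water and 4062 ± 444 CPM in zinc (SD, n = 4 each), with a log2 fold change of -0.45 (SE 0.259, adjusted p = 0.520 by edgeR). Its water replicates 1 to 4 were at 4091, 3964, 8627 and 5469 CPM, and its zinc libraries ran from 3539 to 4476 CPM. Water replicates 1 and 2 thus lay inside the zinc range, and water replicate 3 was the highest of all.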

How the data were processed

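PCs were sorted from 8 mice, 4 on Milli-Q water and 4 on ZnSO4 water, and each library was placed in its group by its label. The authors deposited raw counts per Ensembl gene from strand-specific libraries of polyadenylated RNA, with totals of 10623658 to 15101627. The processing notes of the submitters name FastQC 0.12.0, STAR 2.7.10a, the mm39 build and DESeq2. The counter, the annotation release, the strand setting and the rule for reads with several matches are not given in the sources used here.

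Of 55414 identifiers, 54749 were matched to GENCODE M39 on GRCm39, and the unmatched 665 held 0.00443% of counts. Counts were fitted with edgeR 4.0.16 in R 4.3.3 (quasi-likelihood F test, TMM factors, its default filter on low counts, Benjamini-Hochberg threshold of 0.05), which tested 10707 genes and 7 of the 8 members. Each SE was the log2 fold change divided by the square root of F. DESeq2 1.42.0, limma 3.58.1 (voom with sample weights), other scalings, other filters and the omission of single libraries were alternatives. The scripts were tested on simulated data. Levels per kilobase used the union of exons. Promoter windows came from RefSeq.

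All 8 members were named, as were Mt1, Mt2 and Mtf1, the gene with the smallest p in each direction in every other zinc list, and for Slc30a1 and the most abundant member the 3 genes of highest Pearson's r. The members and lists were chosen with earlier results of these data known. Each library came from its own mouse, no 2 libraries agreed within sampling noise, and counting limits cover counting error only.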

Additional observations from a re-analysis of the deposited data

Results flagged for a closer look

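In 36 groups of 4 libraries searched over the members and the other named zinc genes, 4 held a library that lay far from the other 3 of its group, where chance would give 1.8. Slc30a5 was at 50.1 CPM in zinc replicate 4, against 41.9 CPM in the nearest of the other zinc libraries. Slc30a10 was at 0.0800 CPM in water replicate 4 and at 0.561 CPM in zinc replicate 3, with the others of each group at 0, so that these values rest on 1 and 8 counts. When the other 3 libraries are at 0, any count at all is flagged. The flags of Slc30a10 were therefore fixed by the zeros, the chance value of 1.8 does not hold for such groups, and the comparison with it decides nothing. Mt2 was at 22.9 CPM in water replicate 3, against 7.09 CPM in the nearest of the other water libraries, although Slc30a1 was at 0.492 CPM there, within the range of the other water libraries.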

How the results depend on the processing

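No member was called under any alternative. The log2 fold change of Slc30a1 stayed positive in all 16 alternatives that could give it (1.96 to 3.12, adjusted p 0.144 to 0.855 by edgeR, DESeq2 or limma), the stricter filter having dropped the gene, and that of Slc30a2 in all 17 (0.38 to 0.55, adjusted p 0.207 to 0.855). Slc30a4, Slc30a6, Slc30a7 and Slc30a9 stayed negative in all 17, between -0.51 and -0.10. Slc30a5 turned to 0.0063 without both water replicates 3 and 4, and the difference of Slc30a10, -0.020 to 0.167 CPM when 1 library was left out, was negative without zinc replicate 3, which held 8 of its 9 counts. DESeq2 called 8 of all genes where edgeR called 0, none of them a member, and the cause was not tested. With the canonical transcript as length, chosen after seeing the data, the mean share of Slc30a2 was 36.9% in place of 48.3%. Pearson's r of Slc30a1 with Mt1 was 0.648 with a pseudocount of 0.1 (exact permutation p = 0.0833), was lowest at 0.450 when zinc replicate 1 was left out and highest at 0.912 when zinc replicate 3 was, and was -0.273 without the 2 libraries farthest from the median of Mt1.

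The replicate numbers did not pair the mice, since the deviations of libraries with the same number correlated at -0.0275 to 0.0266 and no water library was best matched by its own number in zinc. With the replicate number as a block, 0 genes and 0 members were called, and Slc30a1 and Slc30a2 had log2 fold changes of 2.58 and 0.48 (adjusted p = 0.595 each by edgeR). Depth limits Slc30a1, with 155 counts in all, and Slc30a10, with 9.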
